A study of Rattus norvegicus with 24 samples.

Results

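The Ifitm genes examined here, Ifitm1, Ifitm2 and Ifitm3, encode interferon-induced transmembrane proteins, and their RNA was followed in rat spinal cord after clip compression. The family was chosen by measured values of these arrays, because Ifitm1 had the largest rise of all genes on day 1 after injury, and every probe set with a member as its single platform gene symbol was included. This gave 3 probe sets, 1 for each gene, of 14218 genes on the Affymetrix rat genome array that had a probe set with a single symbol. The study compared 6 groups of 4 female Wistar rats, a sham group and groups taken on days 1, 3, 7, 14 and 56 after injury, with 1 array for each rat and 24 arrays in all. Injured rats had a T6-T8 laminectomy and a 35 g Walsh clip closed on the cord at T7 for 1 min, and a short piece of cord holding the epicenter was used whole for RNA. By the methods the rats were operated on under halothane and were given amoxicillin with clavulanic acid, analgesics and saline afterwards, and their age was not given. The labels carry the same treatment text for sham and injured rats, and the source name alone marks the 4 sham arrays as sham. The study describes its sham rats as laminectomized, and the day on which they were sampled was not given in the sources used here. Values are the deposited GCRMA levels on the log2 scale, on which a difference of 1 is a doubling. The animals are described as individual rats, so the spread within a group is that between rats. In a piece of whole cord, fewer or more cells of a type and less or more RNA per cell cannot be told apart. By the study's methods the arrays of each time point were also pre-processed separately, so that time point and pre-processing cannot be told apart.

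Interferon-induced transmembrane proteins are small proteins of the plasma membrane and of endosomes and lysosomes. They are known for blocking the fusion of enveloped viruses with cell membranes, Ifitm1 mostly at the cell surface and Ifitm2 and Ifitm3 mostly in endosomal compartments. Type I and type II interferons bind receptors that work through Janus kinases and Stat proteins. Type I interferons act through interferon-stimulated response elements in promoters, which Irf9 helps to bind, whereas gamma-activated sites mostly serve type II interferon. Some cells, among them endothelial, stem and immune cells, also carry Ifitm transcripts without interferon, and inflammatory cytokines can raise them. Microglia, infiltrating myeloid cells and vessel endothelium are among the cells of injured nervous tissue that can carry them.

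The 3 genes lie next to each other on rat chromosome 1 in RefSeq's annotation of GRCr8, in the order Pgghg, Ifitm5, Ifitm2, Ifitm1, Ifitm3, Ifitm6 and B4galnt4. Ifitm5 and Ifitm6 had no probe set with that symbol alone and were not analysed here. RefSeq also lists 6 pseudogenes of the members, 2 of Ifitm1, 3 of Ifitm2 and 1 of Ifitm3, and Ifitm3l as an older name of Ifitm2. Whether the probes also take up RNA of these copies or of another member was not tested. The RefSeq promoter table (GRCr8) held a window for Ifitm2 and for Ifitm3, shown here because the family is known as interferon-induced. These are the 250 bases before each gene's start, minus strand, 5′ to 3′, at chr1:205482349-205482598 for Ifitm2 and chr1:205541759-205542008 for Ifitm3, with the match to the core of an interferon-stimulated response element in capitals.
Ifitm2: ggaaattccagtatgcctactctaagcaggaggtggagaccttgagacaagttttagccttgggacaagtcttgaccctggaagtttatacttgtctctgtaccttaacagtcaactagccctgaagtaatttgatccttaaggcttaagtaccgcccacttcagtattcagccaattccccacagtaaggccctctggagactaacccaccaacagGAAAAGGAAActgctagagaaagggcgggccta
Ifitm3: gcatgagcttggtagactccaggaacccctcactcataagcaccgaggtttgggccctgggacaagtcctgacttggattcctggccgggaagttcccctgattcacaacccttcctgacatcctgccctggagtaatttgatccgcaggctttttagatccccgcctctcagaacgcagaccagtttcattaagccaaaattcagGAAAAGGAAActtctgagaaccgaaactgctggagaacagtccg
The letters searched were GAAANNGAAA on both strands. The match in Ifitm2 spans bases -33 to -24 from the gene's start and that in Ifitm3 bases -44 to -35, and both read GAAAAGGAAA on the gene's own strand. The longest run that the windows share is 15 bases, cagGAAAAGGAAAct. Of 33469 promoter windows of the same length, 3.41% held the core. Counted by gene, with a gene taken as holding it when any of its windows did, the core was found for 3.61% of 27457 genes and for 16 of 31 interferon-stimulated antiviral genes. The Ifitm3 window also had a match to the letters of a gamma-activated site, TTCNNNGAA, which reads the same on both strands, at bases -33 to -25, next to the other match and not overlapping it. These letters were in 7.67% of all windows and, counted by gene, were found for 8.19% of all genes and for 7 of the 31 antiviral genes. Ifitm2 had no match to TTCNNNGAA in its window. A match is a description of the letters and not a binding site.

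Ifitm1 (probe set 1372013_at) was near background in sham cord and among the brightest probe sets on days 1, 7, 14 and 56. On day 3 Ifitm1 stood lower, with percentiles of 74.4 to 78.1 among all probe sets of its arrays. Its sham levels were 1.75, 2.54, 1.99 and 2.05 in replicates 1 to 4. All 4 lay below the mean of the 3 Trpn control probe sets on the same array, which have no rat target and ranged from 2.75 to 3.06 over the 24 arrays. On day 1 the levels were 13.46, 13.21, 12.996 and 13.51, at least the 98.9th percentile of all probe sets on each array. On day 3 they were 8.73, 8.32, 8.73 and 8.44, on day 7 13.49, 13.80, 11.89 and 12.30, on day 14 13.03, 11.97, 13.76 and 12.56, and on day 56 12.29, 13.19, 12.07 and 12.9999. The 4 day 3 arrays sat apart from every other group, above all sham arrays and below all arrays of the other injured groups. The ranges of days 1, 7, 14 and 56 overlapped.

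Ifitm2 (1367696_at) was already well above the Trpn controls in sham cord, with levels of 7.81, 8.77, 7.93 and 8.51. On day 1 they were 12.92, 12.25, 12.10 and 12.82, and on day 3 9.84, 8.92, 9.05 and 9.29. On day 7 they were 12.81, 13.17, 11.14 and 11.63, on day 14 11.89, 11.28, 12.76 and 11.61, and on day 56 11.97, 12.13, 11.92 and 12.26. The 4 day 3 arrays again lay between the sham arrays and those of the other injured groups, with the lowest of them 0.15 above the highest sham array.

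Ifitm3 (1387995_a_at) had the highest sham levels of the 3 probe sets, 10.06, 10.37, 10.48 and 11.02, although levels of different probe sets cannot be compared as amounts of RNA. Its levels were 11.67, 11.96, 11.47 and 11.99 on day 1, and 11.86, 11.02, 11.37 and 11.73 on day 3. They were 12.30, 12.20, 11.85 and 12.13 on day 7, 12.39, 12.05, 12.88 and 12.22 on day 14, and 12.46, 12.46, 12.07 and 12.67 on day 56. Here the day 3 arrays overlapped those of day 1 and, by a single sham array at 11.02, those of sham.

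**Figure D1:**
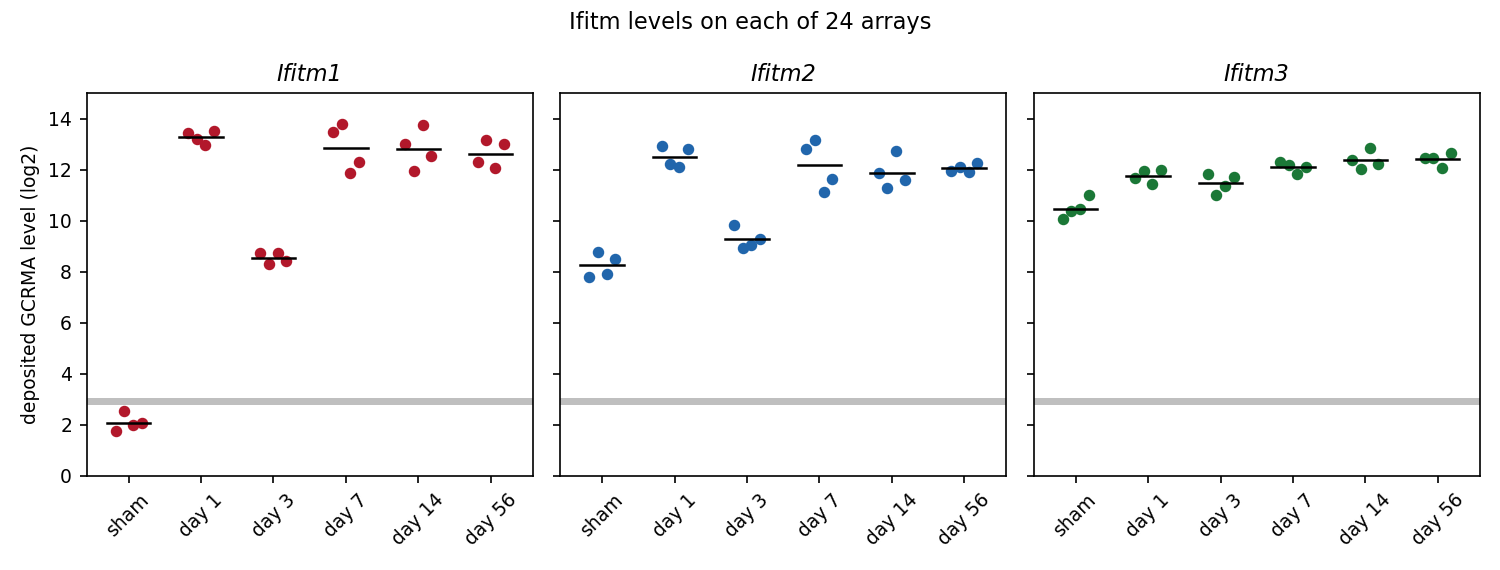
Level of Ifitm1, Ifitm2 and Ifitm3 (log2, y axis) on each of 24 arrays by group (x axis, 4 arrays a group). Points are arrays, black lines are group means and the grey band is the range of the Trpn controls over arrays, 2.75 to 3.06. Ifitm1 lies under the band in sham cord, near 8.56 on day 3 and at 11.89 or higher on all arrays of the other injured groups.

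The day 1 values chose the family and are given as a description, with no test. Mean Ifitm1 was 13.30 ± 0.24 (SD, n = 4) on day 1 against 2.08 ± 0.33 (SD, n = 4) in sham, a difference of 11.21. The next largest day 1 rises, just outside the choice, were those of Ccl2, a monocyte chemokine, at 9.73, Fabp4, a fatty acid binding protein, at 9.44, and Cd300c2, a myeloid receptor, at 9.36. Since sham Ifitm1 lay under the Trpn level, the fold was also set against the sham mean of the Trpn controls, 2.93. Set against that level, Ifitm1 was 1320-fold higher on day 1, 49.4-fold on day 3, 982-fold on day 7, 958-fold on day 14 and 838-fold on day 56. The Trpn level is that of other probe sets and no detection limit of the Ifitm1 probe set. These folds thus depend on the GCRMA floor and are not certain lower bounds. Ifitm2 was 4.27 higher than sham on day 1, at place 187 of the genes, and Ifitm3 1.29 higher, at place 1730. Of all genes, 28.9% were called higher on day 1 at an adjusted p under 0.05.

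Ifitm2 and Ifitm3 were tested against sham on the later days, with limma, and p-values were adjusted by the Benjamini-Hochberg method over 20832 probe sets with a single symbol. The sham arrays are those of the choosing comparison and are shared by all 4 tests. On day 3 both were called higher, as were 23.7% of all genes. Ifitm2 was 1.02 higher on day 3 (SE 0.39, limma adjusted p = 0.0445) and Ifitm3 1.01 higher (SE 0.22, limma adjusted p = 0.000961). The Ifitm2 call was lost when any of 5 of the 8 arrays was left out (sham replicate 1 or 3, day 3 replicate 1, 3 or 4, with differences of 0.83 to 1.09 and limma adjusted p from 0.0592 to 0.126), with quantile normalization (adjusted p = 0.0764 by limma) and with the replicate number as a block (adjusted p = 0.0581 by limma). On day 7, when 23.5% of genes were called higher, Ifitm2 was 3.93 above sham (limma adjusted p = 3.17e-07) and Ifitm3 1.64 (limma adjusted p = 8.5e-06). On day 14, with 15.8% of genes called higher, the differences were 3.63 and 1.90 (limma adjusted p = 1.38e-06 and 2.74e-06). On day 56, with 16.1% of genes called higher, they were 3.81 and 1.93 (limma adjusted p = 8.12e-07 and 2.38e-06). On days 7, 14 and 56 neither gene overlapped sham on any array. The share of all genes without such overlap was not counted, for these or other groups. In folds, Ifitm2 was 15.2, 12.4 and 14.1 times sham on days 7, 14 and 56, and Ifitm3 was 3.11, 3.74 and 3.81 times sham.

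Between injured groups all 3 members could be tested on differences that did not use the values that chose them. The spread in the fit was still estimated from all 24 arrays, those of sham and day 1 among them. From day 3 to day 7 all 3 rose, against 12.8% of all genes called higher. Ifitm1 rose by 4.31 (SE 0.39, 95% confidence interval 3.50 to 5.13, limma adjusted p = 1.0e-07), a 19.9-fold difference that ranked 48th of 14218 genes. Ifitm2 rose by 2.91 (SE 0.39, interval 2.10 to 3.72, limma adjusted p = 1.16e-05), a 7.51-fold difference that ranked 167th. With only these 2 groups in the fit, the limma adjusted p was 0.0013 for Ifitm1 and 0.00758 for Ifitm2. Ifitm3 rose by 0.63 (SE 0.22, interval 0.17 to 1.08, limma adjusted p = 0.0375), with arrays of the 2 groups overlapping. The Ifitm3 call was lost with only these 2 groups in the fit (adjusted p = 0.0718 by limma) and without day 3 replicate 2 or 3 or day 7 replicate 1, 2 or 4 (0.47 to 0.62, limma adjusted p from 0.0689 to 0.147). Day 56 also lay above day 3 for all 3 genes, by 4.08, 2.79 and 0.92 (limma adjusted p = 1.24e-07, 1.12e-05 and 0.00235), when 13.9% of all genes were called higher.

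From day 7 on, no member was called different between groups. Day 14 minus day 7 was -0.04 for Ifitm1 (95% confidence interval -0.85 to 0.78), -0.30 for Ifitm2 (-1.11 to 0.51) and 0.26 for Ifitm3 (-0.19 to 0.72), in a comparison that called 28.0% of all genes in either direction. Day 56 minus day 14 was -0.19 for Ifitm1 (-1.01 to 0.62), 0.18 for Ifitm2 (-0.62 to 0.99) and 0.03 for Ifitm3 (-0.42 to 0.48), where 0.338% of genes were called. Day 56 minus day 7 was -0.23 for Ifitm1 (-1.04 to 0.58), -0.12 for Ifitm2 (-0.92 to 0.69) and 0.29 for Ifitm3 (-0.16 to 0.75), where 6.77% of genes were called. Unadjusted limma p-values of these 9 differences ran from 0.191 to 0.928 and none was under 0.05, and the intervals of Ifitm1 and Ifitm2 together reached from -1.11 to 0.99. At 8 weeks after injury Ifitm1 and Ifitm2 stood at a mean of 12.64 and 12.07, and Ifitm3 at 12.41.

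**Figure D2:**
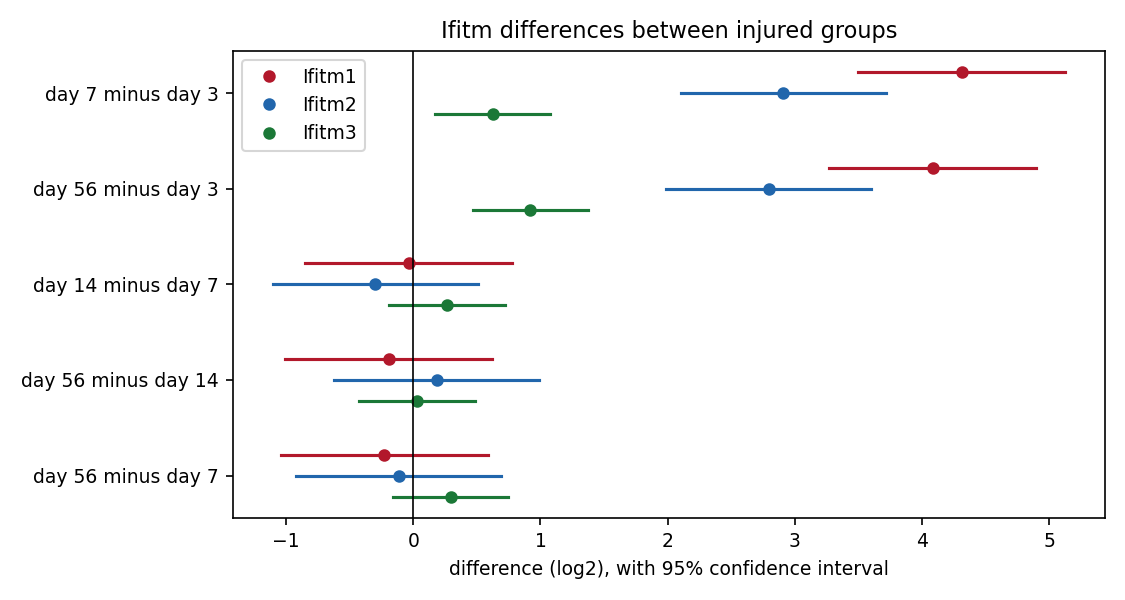
Differences (log2, x axis) between injured groups (y axis) for Ifitm1, Ifitm2 and Ifitm3. Points are limma estimates from 4 arrays a group and lines are 95% confidence intervals. Days 7 and 56 lie above day 3 for all 3 genes, and the intervals of the comparisons among days 7, 14 and 56 all include 0.

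Ordered by mean level, Ifitm1 ran sham 2.08, day 3 8.56, day 56 12.64, day 14 12.83, day 7 12.87 and day 1 13.30, and the arrays of neighbours in that order overlapped from day 56 upward. Ifitm2 ran sham 8.25, day 3 9.27, day 14 11.88, day 56 12.07, day 7 12.18 and day 1 12.52, with overlap from day 14 upward. Ifitm3 ran sham 10.48, day 3 11.49, day 1 11.77, day 7 12.12, day 14 12.39 and day 56 12.41, and every pair of neighbours overlapped. Day 3 minus day 1 was -4.74 for Ifitm1, -3.25 for Ifitm2 and -0.28 for Ifitm3, values given with no test because day 1 chose the family. The 3 genes thus shared an order in which sham was lowest and day 3 next, while Ifitm3 had its highest mean on day 56 and the other two on day 1.

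Whether the members changed by different amounts was tested from day 3 to day 7, on the difference between 2 members on the same array. This comparison was added after the values were seen. Ifitm1 minus Ifitm2 was -0.72 ± 0.34 (SD, n = 4) on day 3 and 0.68 ± 0.05 (SD, n = 4) on day 7, so that Ifitm1 rose by 1.40 more. Ifitm1 rose by 3.69 more than Ifitm3, and Ifitm2 by 2.28 more than Ifitm3. In each of the 3 pairs the 4 arrays of day 7 lay above the 4 of day 3 (two-sided exact permutation test, p = 0.0286, also 0.0286 after Benjamini-Hochberg adjustment over the 3 pairs, the smallest p that 4 arrays against 4 allow).

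Rats of the same group differed in Ifitm1 and Ifitm2 together. On day 7, replicate 2 was 0.93 above the group mean for Ifitm1 and 0.98 above it for Ifitm2, and the deviations of replicate 3 were -0.98 and -1.05. For Ifitm3 those of the same arrays were 0.08 and -0.27. Over the 24 arrays, the deviations of Ifitm1 and Ifitm2 from their group means had a Pearson r of 0.893 and a Spearman rho of 0.853 (two-sided permutation tests within groups, p = 1e-05 and 3e-05, the former the smallest that 100000 draws give, and 3e-05 and 9e-05 adjusted over 3 pairs). For Ifitm1 with Ifitm3, r was 0.575 and rho 0.570 (permutation p = 0.00184 and 0.00308, unchanged by adjustment), and for Ifitm2 with Ifitm3, r was 0.636 and rho 0.670 (permutation p = 0.00058 and 0.00041, adjusted 0.00087 and 0.000615). Without the 2 arrays farthest from the median of the first gene, r was 0.822, 0.505 and 0.669 in that order. With each array centred on its median, r was 0.891, 0.565 and 0.623. These values include sham arrays, on which Ifitm1 lay under the Trpn level, and the day 1 arrays that chose the family. Over the 16 arrays of days 3, 7, 14 and 56 alone, a setting added after the values were seen, r was 0.905, 0.687 and 0.735 in the same order (two-sided permutation tests within groups, adjusted p = 0.0003, 0.00085 and 9e-05 over 3 pairs), and rho was 0.894, 0.641 and 0.812 (permutation tests, adjusted p = 0.000915, 0.00291 and 6e-05).

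Markers of several cell types also differed between the day 7 arrays. The mean level of 14 monocyte and macrophage markers was 9.90, 10.40, 8.93 and 9.48 in replicates 1 to 4, in the same order as Ifitm1 and Ifitm2. The means of 11 fibroblast and pericyte markers, 10.39, 10.77, 9.35 and 9.38, and of 11 T and NK cell markers, 3.60, 3.96, 3.35 and 3.50, were in that order as well, and those of 10 neuronal markers, 7.46, 7.24, 9.43 and 8.01, were in the reverse order. On day 3 the macrophage markers, at 8.14, 8.31, 8.51 and 8.25, were not in the order of Ifitm1 or Ifitm2. On day 14, at 9.35, 9.06, 9.82 and 9.19, they were in the order of both. The fibroblast and pericyte markers, at 9.53, 9.24, 10.43 and 9.46 on day 14, were in the order of both as well. On day 3, at 7.83, 5.45, 5.91 and 6.61, those markers were in the order of Ifitm2 but not of Ifitm1. The T and NK cell markers were in neither order on days 3 and 14, and the neuronal markers in the reverse of neither. On days 1 and 56 the macrophage markers were in the order of neither gene, and on day 56 they spanned 9.35 to 9.36. The fibroblast and pericyte markers were in neither order on day 1 and in the order of Ifitm2 alone on day 56. The part of any of these cells in the spread was not tested.

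**Figure D3:**
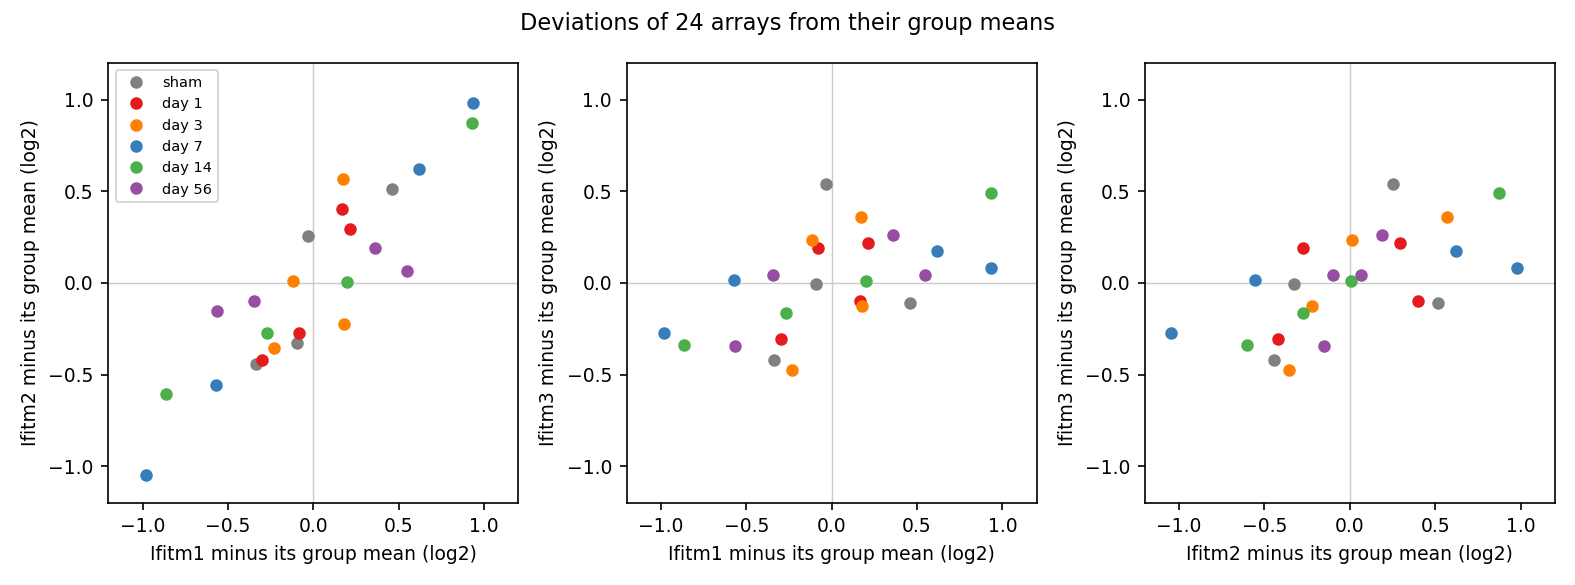
Deviation of each of 24 arrays from its group mean (log2) for pairs of members, coloured by group. Ifitm1 and Ifitm2 fall along a line with r of 0.893, and Ifitm3 spreads less and follows less closely, with r of 0.575 against Ifitm1 and 0.636 against Ifitm2.

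The genes with the pattern most like each member were found by Pearson r between levels, first over all 24 arrays and then over the 20 injured arrays. These correlations carry the group differences, share arrays and are a description. Over 24 arrays the genes most like Ifitm1 were Fabp5, a fatty acid binding protein (r = 0.983), Gngt2, a G protein gamma subunit (0.978), Cd68, a lysosomal glycoprotein of macrophages (0.978), Ly96, the co-receptor of Toll-like receptor signalling also known as MD-2 (0.969), and Lgmn, a lysosomal protease (0.969). Cd68 ran 2.94 in sham, 11.93 on day 1, 7.48 on day 3 and 11.70 on day 7, close to the course of Ifitm1. Over the injured arrays alone, the closest were Ms4a6bl1, Tmem86a, Smpdl3a, Dpp7 and Pepd (r from 0.982 to 0.984). For Ifitm2 they were Eci3, Cmtm3, Pi16, Ctsa and Grn over 24 arrays (0.975 to 0.981), of which Ctsa is a lysosomal carboxypeptidase and Grn encodes progranulin, a lysosomal and secreted protein. Over the injured arrays they were Dap, Pepd, Tmem86a, Ms4a6bl1 and Eci3 (0.975 to 0.991). Of these, Pepd, Tmem86a and Ms4a6bl1, were also among those of Ifitm1.

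Ifitm3 had other neighbours. Over 24 arrays they were Gbp2, an interferon-inducible GTPase (r = 0.943), Irf9, a DNA-binding factor of type I interferon signalling (0.938), Parp9, an interferon-stimulated ADP-ribosyltransferase (0.923), Axl, a receptor tyrosine kinase of apoptotic cell uptake (0.920), and Irgm2, an immunity-related GTPase (0.915). Over the injured arrays they were C1r and C1s, the proteases of complement C1, Rarres2, which encodes chemerin, Col4a5, a basement membrane collagen, and Twsg1, a modulator of BMP signalling (0.927 to 0.946). C1s had means of 8.80 on day 1, 7.97 on day 3 and 10.40, 11.12 and 11.52 on days 7, 14 and 56. Members were kept apart from the genes listed above. Between members, r over 24 arrays was 0.937 for Ifitm1 with Ifitm2, 0.883 for Ifitm1 with Ifitm3 and 0.836 for Ifitm2 with Ifitm3. Over the 20 injured arrays these were 0.977, 0.641 and 0.636. By likeness to Ifitm1 among all genes, Ifitm2 ranked 52nd over 24 arrays and 10th over injured arrays, and Ifitm3 236th and 1267th. By likeness to Ifitm2, Ifitm1 ranked 121st and 4th, and Ifitm3 607th and 1337th. By likeness to Ifitm3, Ifitm1 ranked 20th and 766th, and Ifitm2 86th and 799th.

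Of the pathway that is known to induce the family, the interferons themselves gave no signal above the untargeted controls. Ifnb1, Ifng and Ifnk were the 3 of 11 listed interferon genes with a probe set of a single symbol, and all 3 had means below the Trpn controls in every group. Ifng, the type II interferon, ran from 2.18 to 2.28 over the group means. All 3 were called lower than sham on day 7, as were 30.0% of all genes, with differences of -0.08 to -0.07. The Trpn controls were then also lower (2.81 against 2.93 in sham), and a level under that of an untargeted probe gives no measure of the RNA.

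Receptors and signal carriers were well detected, and fewest of them were called on day 3. Of all genes, 28.9%, 23.7%, 23.5%, 15.8% and 16.1% were called higher than sham on days 1, 3, 7, 14 and 56. The shares called lower were 20.4%, 16.7%, 30.0%, 16.3% and 15.9%. Of 6 receptor genes, 5 were called higher on days 1, 7, 14 and 56 and 2 on day 3, and Ifnlr1, of the type III interferon receptor, was below the Trpn controls throughout. Ifngr1, the ligand-binding chain of the interferon gamma receptor, had means of 9.26 in sham, 11.41 on day 1, 9.64 on day 3 and 11.19 on day 7. Il10rb, a chain shared by receptors of IL-10 and type III interferons, was 2.98, 1.15, 2.88, 2.87 and 2.82 above sham on days 1, 3, 7, 14 and 56 and was called on each. Of 11 signal transduction genes, 9, 4, 11, 9 and 9 were called higher on the 5 days and none lower, also at an unadjusted limma p under 0.05. Irf8, a transcription factor of myeloid cells, was 3.69 above sham on day 1 and 3.77 on day 7 and was called on both, with 1.26 on day 3, which was not called (limma adjusted p = 0.0515). Irf7, which drives type I interferon genes, was 1.13 above sham on day 1 and 1.07 on day 3, neither called, and 3.60, 4.71 and 3.37 above it on days 7, 14 and 56, all called. Socs3, a feedback inhibitor of Janus kinases, differed in course, with calls of 2.63 on day 1 and 4.67 on day 3 and 0.33 on day 7, not called.

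The classical interferon-stimulated antiviral genes, a list of 48 of which 39 were measured and which leaves out the Ifitm genes, were called in larger numbers on the later days. Of the 39, 13 were called higher and 2 lower on day 1, with a median difference from sham of 0.53 against 0.01 over all genes, and 28.9% and 20.4% of all genes called higher and lower. On day 3, 9 were called higher and 2 lower (4 lower without day 3 replicate 4), with a median of 0.03 against -0.04, where 23.7% and 16.7% of genes were called. On day 7, 27 were called higher (median 1.88 against -0.05), on day 14 33 (2.72 against 0.03) and on day 56 25 (2.19 against -0.02), and none was called lower by limma on these days. At an unadjusted p under 0.05, 1 was lower on day 7 and 0 on days 14 and 56, and the unmoderated test of the same linear model called 2 lower on day 7. The share of all genes called lower was 30.0%, 16.3% and 15.9% on days 7, 14 and 56. The highest of the 6 group means fell on day 14 for 35 of the 39 genes and on day 1 for 2, and the share of all genes highest on day 14 was not counted. For Ifitm1 and Ifitm2 the highest mean fell on day 1 and for Ifitm3 on day 56, with arrays that overlapped those of the next highest group. Since the family was chosen for the day 1 rise of Ifitm1, its day 1 level is no independent contrast with the antiviral genes. The Trpn controls also had their highest mean on day 14, 3.01, and 3 of the 39 genes lay below them on that day. From day 7 to day 14, 21.8% of all genes were called higher and 6.18% lower, and of the 39, 9 were called higher by limma and none lower, also at an unadjusted p under 0.05.

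Mx1, a GTPase that blocks viral replication, had levels of 4.76 to 7.57 in sham, 5.91 to 8.00 on day 1, 4.69 to 5.31 on day 3, 9.31 to 11.48 on day 7 and 10.55 to 12.68 on day 14. It was 1.46 above sham on day 1, not called (limma adjusted p = 0.0944), and 6.07 above it on day 14 (SE 0.69, limma adjusted p = 2.47e-06), the largest day 14 difference among the 39. Isg15, a ubiquitin-like protein, had a mean of 5.45 in sham, 5.26 on day 1, 6.67 on day 3, 9.05 on day 7 and 10.52 on day 14. Rsad2, which encodes viperin, was 5.76 above sham on day 14, and Ifit3 4.67, both called. Other genes of the list were called on every day, as Ifitm2 was on days 3 to 56. Slfn2, a schlafen protein of immune cells, was 3.98, 2.48, 4.31, 4.75 and 4.41 above sham on the 5 days, all called. Lgals3bp, a secreted galectin-binding glycoprotein, was 3.56, 2.01, 4.14, 4.33 and 3.47 above it, all called.

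Among 18 measured genes of the interferon gamma type, GTPases, chemokines and antigen-processing genes, 11, 3, 11, 11 and 10 were called higher on days 1, 3, 7, 14 and 56, against 28.9%, 23.7%, 23.5%, 15.8% and 16.1% of all genes. Of the 18, 1, Ido1, under the Trpn level, was called lower on day 7, when 30.0% of all genes were. Psmb8, a subunit of the immunoproteasome, had a course like that of Ifitm1 and Ifitm2, with means of 4.60 in sham, 9.39 on day 1, 5.79 on day 3, 9.06 on day 7 and 8.28 on day 56. Cxcl10, a chemokine of T cells, was instead 0.30 above sham on day 1 and 0.37 on day 3, neither called, and 5.67 above it on day 14, called.

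**Figure D4:**
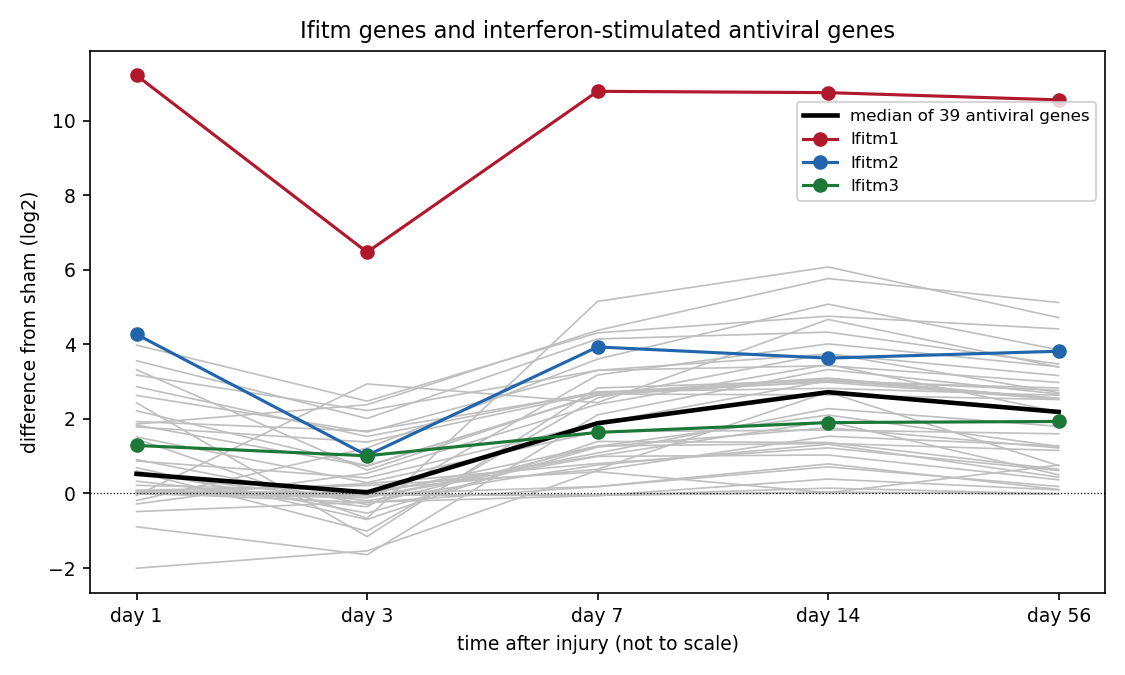
Difference of group means from sham (log2, y axis) on each day (x axis, not to scale) for Ifitm1, Ifitm2 and Ifitm3 (colours), each of 39 interferon-stimulated antiviral genes (grey lines) and their median (black). The same 4 sham arrays enter every value. The median of the antiviral genes goes from 0.53 on day 1 to 0.03 on day 3 and 2.72 on day 14. On day 1 Ifitm1 and Ifitm2 are at 11.21 and 4.27, but the family was chosen for the day 1 rise of Ifitm1.

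Relatives of the family had other courses. Ifitm10, a more distant member on the same chromosome, had means of 8.65 in sham, 7.25 on day 1, 9.17 on day 3, 6.66 on day 7, 6.79 on day 14 and 6.54 on day 56, so that day 3 was its highest group. It fell by 2.51 from day 3 to day 7 (SE 0.29, limma adjusted p = 2.62e-06), where 17.1% of all genes were called lower, and no Ifitm10 array of day 7 reached the lowest of day 3. Its 3 promoter windows held no match to GAAANNGAAA or TTCNNNGAA. Of 8 measured relatives of the wider dispanin family, none was called higher on any day by limma, also at an unadjusted p under 0.05, and 6, 5, 6, 5 and 5 were called lower on the 5 days, against 20.4%, 16.7%, 30.0%, 16.3% and 15.9% of all genes. Prrt2, a synaptic protein of neurons, fell by 3.60 from sham on day 1, and Syndig1, also synaptic, fell by 2.93. Of 12 genes tied to the trafficking or modification of Ifitm proteins, 7, 5, 4, 3 and 3 were called higher on the 5 days, where 28.9%, 23.7%, 23.5%, 15.8% and 16.1% of all genes were, and 1, 2, 1, 2 and 1 lower. Cd63, a tetraspanin of late endosomes, was 1.88, 1.81, 1.71, 1.55 and 1.71 above sham, all called. Zdhhc20, a palmitoyltransferase known to act on Ifitm3, differed from sham by -1.07, -0.74, -0.77, -0.65 and -0.78, all called, and Nedd4, a ubiquitin ligase of Ifitm3, differed from sham by 0.00 to 0.11 and was never called.

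Markers of several cell types also differed between the groups, and the lists differed in their courses. The mean level of 14 monocyte and macrophage markers was 5.69 to 7.19 over sham arrays, 9.83 to 10.21 on day 1, 8.14 to 8.51 on day 3, 8.93 to 10.40 on day 7, 9.06 to 9.82 on day 14 and 9.35 to 9.36 on day 56. Of the 14, 11, 9, 11, 11 and 11 were called higher than sham on the 5 days, against 28.9%, 23.7%, 23.5%, 15.8% and 16.1% of all genes. On day 3, 2 were called lower, against 16.7% of all genes. Adgre1, the F4/80 antigen, was at 6.59, 8.94, 3.74 and 10.19 in sham and on days 1, 3 and 7, whereas Cd14, a co-receptor for lipopolysaccharide, was at 11.51 on day 1 and 11.18 on day 3. Ccr2, the receptor of inflammatory monocytes, had group means of 2.52 to 2.81. The 8 microglia markers had means of 7.19 to 7.78 over sham arrays, 8.19 to 9.03 on day 1, 5.36 to 6.47 on day 3, 8.54 to 9.14 on day 7, 8.57 to 9.06 on day 14 and 8.30 to 8.72 on day 56, so that day 3 lay below sham for these markers and above it for all 3 Ifitm genes. P2ry12, a purinergic receptor of resident microglia, fell from 10.53 in sham to 7.85 on day 3, 1 of 5 microglia markers called lower, against 16.7% of all genes. All 8 were above the Trpn controls in every group.

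The 9 neutrophil markers ran the other way at day 3, with means of 2.87 to 3.03 over sham arrays, 5.06 to 5.36 on day 1, 5.71 to 6.03 on day 3, 3.23 to 4.25 on day 7, 3.28 to 3.93 on day 14 and 3.09 to 3.43 on day 56. S100a9, a calgranulin, was at 12.65 on day 3 against 11.02 on day 1 and 4.18 in sham, while 4 to 6 of the 9 lay below the Trpn controls in each group, Camp and Mmp9 among them. The 12 endothelial markers differed less, with group means of 5.48 to 6.48 and the highest on day 3. On day 1, 4 were called higher and 1 lower, on day 3 5 higher, and on day 7 1 higher and 1 lower. Of all genes, 28.9%, 23.7% and 23.5% were called higher on those days, and 20.4%, 16.7% and 30.0% lower. None was called in either direction by limma on days 14 and 56 (2 and 3 lower at an unadjusted p under 0.05), where 15.8% and 16.1% of all genes were called higher and 16.3% and 15.9% lower. The 11 fibroblast and pericyte markers had means of 7.67 to 8.21 over sham arrays, 5.45 to 7.83 on day 3 and 9.35 to 10.77 on day 7. Of 11 T and NK cell markers, 7 or 8 lay below the Trpn controls in each group. From day 3 to day 7, 7 of the 14 monocyte and macrophage markers, 7 of the 8 microglia markers and 8 of the 11 fibroblast and pericyte markers were called higher, along with the 3 Ifitm genes, against 12.8% of all genes. In the same comparison 1 monocyte and macrophage marker and 1 fibroblast and pericyte marker were called lower, against 17.1% of all genes.

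Markers of the labelled tissue were present in sham cord and many were lower after injury. The 10 neuronal markers had a mean of 10.82 to 11.34 over sham arrays, 5.93 to 7.83 on day 1, 9.55 to 10.25 on day 3, 7.24 to 9.43 on day 7, 6.40 to 8.97 on day 14 and 7.79 to 9.25 on day 56. Of the 10, 10, 3, 10, 10 and 9 were called lower than sham on the 5 days, against 20.4%, 16.7%, 30.0%, 16.3% and 15.9% of all genes. By mean level day 3 lay nearest to sham for neuronal markers, as it did for all 3 Ifitm genes. The 8 astrocyte markers had group means of 11.19 in sham, 9.19 on day 1, 9.79 on day 3, 10.02 on day 7, 10.29 on day 14 and 10.43 on day 56, and 7, 5, 5, 2 and 2 of them were called lower, against the same shares of all genes. Gfap of this list stayed between group means of 14.18 and 14.87. The 7 oligodendrocyte markers had group means of 13.23 in sham, 11.96 on day 1 and 12.45 to 12.78 on the later days, and 7, 4, 4, 4 and 6 were called lower, against the same shares of all genes. Mbp of myelin had group means of 14.93 to 15.35. The part of any of the cell types above in the Ifitm levels was not tested.

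**Figure D5:**
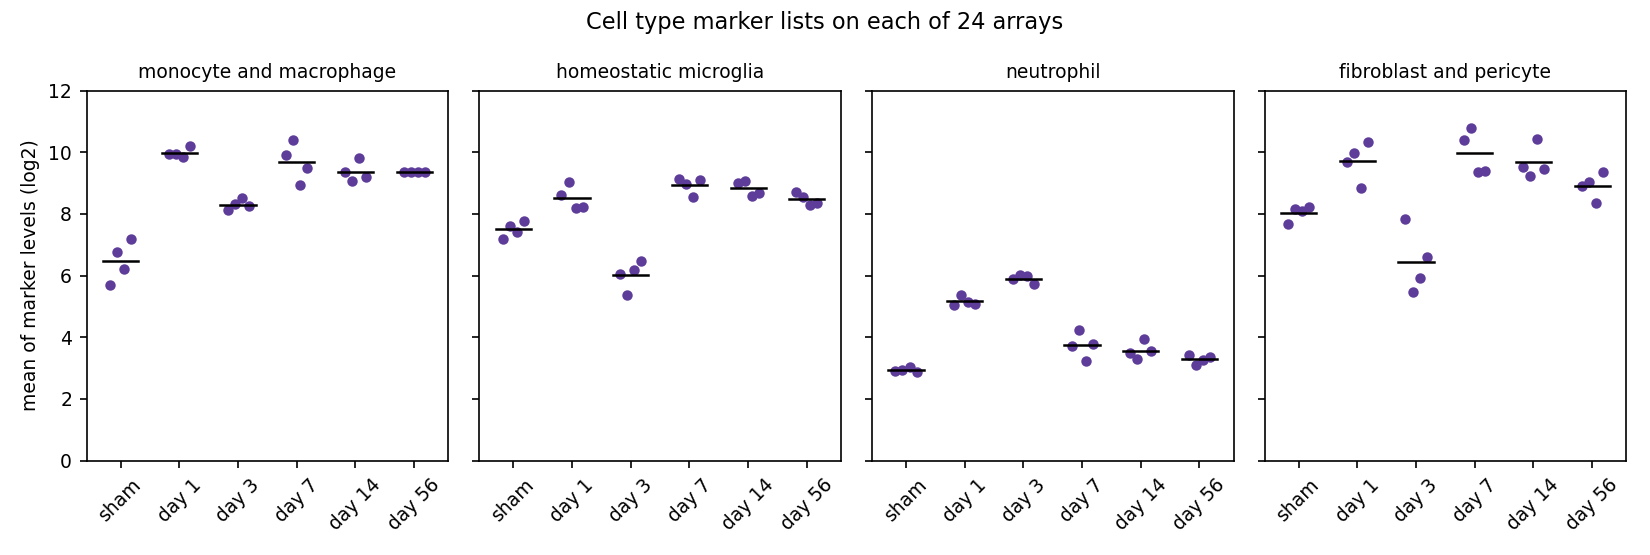
Mean level (log2, y axis) of 4 marker lists on each of 24 arrays by group (x axis). Points are arrays and black lines are group means. Monocyte and macrophage, microglia and fibroblast and pericyte markers are lower on day 3 than on days 1 and 7, and neutrophil markers are highest on day 3.

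The 18 spike-in control probe sets had group means of 11.41 to 11.69, with day 3 at 11.59 and the lowest value on day 14. The 3′ minus 5′ difference of the beta-actin control probe sets, which follows RNA integrity and labelling, was 1.29 to 1.62 over sham arrays, 0.89 to 1.05 on day 1, 1.10 to 1.21 on day 3, 0.95 to 1.25 on day 7, 1.16 to 1.24 on day 14 and 1.18 to 1.33 on day 56. It was highest in sham, and of the injured groups the day 56 range alone reached that of sham. Its part in the differences from sham was not tested. The same difference for GAPDH had group means of 0.00 to 0.09. The median difference from sham over all genes was between -0.05 and 0.03 on the 5 days. Within a group, arrays correlated over all probe sets with r between 0.973 and 0.996.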

How the data were processed

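RNA of T7 spinal cord from 24 rats was measured on Affymetrix rat genome expression arrays, 6 groups of 4. Per the labels and the methods, the authors processed the scans in R with affy 1.12.2 and GCRMA, each time point separately, and deposited log2 levels of 31099 probe sets. GCRMA pulls dim probe sets toward a floor, so that differences from levels near the Trpn controls depend on it. No counts or detection calls were used, and the number of arrays limits precision.

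From these values, probe sets with 1 gene symbol in the platform annotation were kept (20832, while 436 had several symbols and 9831 none), and the one with the highest mean stood for a gene. A linear model with 6 groups was fitted in R 4.3.3 with limma 3.58.1 (lmFit, eBayes, 18 residual degrees of freedom), two-sided, with Benjamini-Hochberg adjustment over the 20832 probe sets for each contrast. A call is an adjusted p under 0.05. Intervals are 95% confidence intervals of that model. Permutations used scipy 1.17.1 and numpy 2.4.6. The model was tested on simulated data.

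The members, gene lists and marker lists were chosen with earlier results of these data known. Groups came from the labels. The replicate numbers of different groups were not treated as pairs, since same-numbered arrays did not deviate together (median r of 0.00 over 60 pairs of arrays). Named genes were all members, up to 4 genes of each list and day with the largest called difference from sham, single genes of the interferon, receptor and signalling lists for their role, and the 5 genes most like each member. Other genes named, such as Isg15, Cxcl10 on days without a call, Adgre1, Ccr2, P2ry12, Camp, Mmp9, Mbp, Gfap, Nedd4 and Zdhhc20, were chosen after their values were seen. Alternatives were quantile normalization, median centring, a filter on dim probe sets, other moderation, an unmoderated test of the same linear model, fits of only the groups compared, averaging the probe sets of a gene, the replicate number as a block, and leaving out arrays, with the deviations also compared without sham and day 1.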

Additional observations from a re-analysis of the deposited data

How the results depend on the processing

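The 15 differences between days and the 8 from sham that were tested kept their direction and their side of the threshold with median centring, robust moderation with a trend, an unmoderated test of the same model and the filter on dim probe sets. Exceptions under other settings were as follows. Ifitm2 on day 3 minus sham was 0.89 with quantile normalization (limma adjusted p = 0.0764) and 1.02 with the replicate block (limma adjusted p = 0.0581), and 0.83 to 1.19 without each replicate in turn (limma adjusted p from 0.0328 to 0.126). Ifitm3 on day 7 minus day 3 was 0.63 with only those 2 groups in the fit (limma adjusted p = 0.0718) and 0.47 to 0.75 without each replicate in turn. Of the 9 differences among days 7, 14 and 56, none was called in any setting run, and 7 turned in sign in at least 1 of them. Quantile normalization gave 0.0717 for Ifitm1 on day 14 minus day 7 and -0.00477 for Ifitm3 on day 56 minus day 14. Leaving out day 7 replicates 2 and 3 and day 14 replicate 3 together, a set known from an earlier look at these data, gave 0.12 for Ifitm1 on day 56 minus day 14. Without each replicate in turn, day 14 minus day 7 ran from -0.36 to 0.28 for Ifitm1 and from -0.648 to 0.0276 for Ifitm2, day 56 minus day 14 from -0.48 to 0.12 for Ifitm1, from -0.0177 to 0.475 for Ifitm2 and from -0.0847 to 0.193 for Ifitm3, and day 56 minus day 7 from -0.556 to 0.0816 for Ifitm1 and from -0.46 to 0.21 for Ifitm2. The antiviral genes called lower numbered 2 to 4 on day 3 (4 without day 3 replicate 4) and 0 to 1 on day 7 (1 without sham replicate 4) without each replicate in turn, and 2 on day 7 by the unmoderated test. The cause of these changes was not tested. All 108 recomputed group levels moved by less than 1 SD. The replicate block changed no other call of a member, and with same-numbered arrays correlating between -0.69 and 0.46 the numbers were not taken as pairs. Ifitm1 in sham cord lies under the Trpn controls, so its folds were set against their level and depend on the GCRMA floor.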
